A study of Mus musculus with 32 samples.

Results

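Pparg and 7 transcription factor genes that act with it in fat cell formation were followed across 32 mouse arrays. The genes were Pparg, Rxra, Rxrg, Cebpa, Cebpb, Cebpd, Ebf2 and Klf15. They were found on the array by matching each probe's RefSeq identifier to the gene symbol, which gave 10 probes for 8 genes, of 39429 probes and 20659 named genes in all. Rxra and Rxrg had 2 probes each and the other genes 1 each. The probe with the higher mean over all arrays was used for a gene, and the second probe is given beside it. The rule names the genes and uses no measured value, although results of these data were known when they were listed.

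The arrays fell into 8 groups of 4 samples, all labelled as preadipocytes of C57Bl/6 strain. In culture these were a Pparg KnockDown with its Pparg control and a Gyk KnockDown with its Gyk control, Gyk being glycerol kinase (Gk in current nomenclature), which phosphorylates glycerol. From mice they were Pparg KnockOut and Pparg control samples after cold exposure, and Pparg KnockOut and Pparg control samples at room temperature. The labels give room temperature for the cultured samples as well. They do not give the fat depot, the age, how the knockdown was made, or which part of Pparg was deleted and in which cells, and nothing in them tells if replicates were distinct cultures or animals. The p-values therefore reflect only the variation among these replicates, which could be technical.

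PPARgamma, the product of Pparg, is a nuclear receptor that binds fatty acid ligands, pairs with a retinoid X receptor (RXR) and turns on the genes of the fat cell. In the textbook cascade of fat cell differentiation, C/EBPbeta and C/EBPdelta (Cebpb, Cebpd) act early and switch on Pparg and Cebpa, after which PPARgamma and C/EBPalpha maintain each other. Ebf2 marks the brown fat lineage and guides PPARgamma to brown fat genes, and Klf15 is a Krüppel-like factor that promotes fat cell differentiation and responds to glucocorticoids and fasting.

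The start regions of Pparg and Rxrg are shown because these were the receptor genes with the largest falls in the Pparg knockdown among the 8. They come from RefSeq on build GRCm38.p6, forward strand, and run from 250 bases before to 50 bases after a transcript start, 5′ to 3′. Capitals mark the letters AGGTCA (the half-site bound by nuclear receptors) or TTGCNNAA (a core of C/EBP sites) on either strand.
Pparg, first start, chr6:115360894-115361193: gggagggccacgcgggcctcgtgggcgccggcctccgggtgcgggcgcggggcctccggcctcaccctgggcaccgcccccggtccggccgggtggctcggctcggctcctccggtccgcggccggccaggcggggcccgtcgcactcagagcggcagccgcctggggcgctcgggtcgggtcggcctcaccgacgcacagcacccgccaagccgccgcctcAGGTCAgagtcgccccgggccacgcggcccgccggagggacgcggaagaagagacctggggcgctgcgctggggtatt
Pparg, next start, chr6:115362099-115362398: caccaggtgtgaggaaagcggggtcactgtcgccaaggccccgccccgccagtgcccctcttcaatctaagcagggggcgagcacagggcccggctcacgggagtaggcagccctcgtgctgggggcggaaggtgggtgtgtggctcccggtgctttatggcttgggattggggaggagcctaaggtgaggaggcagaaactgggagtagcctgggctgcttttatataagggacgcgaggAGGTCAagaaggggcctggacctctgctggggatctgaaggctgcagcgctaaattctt
Pparg, last start, chr6:115421816-115422115: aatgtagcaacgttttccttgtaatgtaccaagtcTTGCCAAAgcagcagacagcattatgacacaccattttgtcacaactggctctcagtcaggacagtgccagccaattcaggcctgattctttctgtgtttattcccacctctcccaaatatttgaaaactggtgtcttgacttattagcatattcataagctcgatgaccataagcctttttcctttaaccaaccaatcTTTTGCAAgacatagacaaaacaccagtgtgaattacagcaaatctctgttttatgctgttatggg
Rxrg, downstream start, chr1:167618015-167618314: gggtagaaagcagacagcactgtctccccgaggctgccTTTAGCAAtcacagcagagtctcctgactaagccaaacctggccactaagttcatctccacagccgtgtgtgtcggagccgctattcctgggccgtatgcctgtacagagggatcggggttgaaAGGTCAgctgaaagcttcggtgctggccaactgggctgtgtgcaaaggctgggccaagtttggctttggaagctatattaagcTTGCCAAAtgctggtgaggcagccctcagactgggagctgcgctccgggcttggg
The first and the next Pparg windows each held 1 half-site and no C/EBP core, the last Pparg window held 2 C/EBP cores and no half-site, and the Rxrg window held 1 half-site and 2 C/EBP cores. Of 32851 mouse promoter windows of the same length, 16.3% held AGGTCA and 10.8% held TTGCNNAA. The direct repeat AGGTCANAGGTCA, the form of the PPAR response element that was searched, stood in none of the 10 windows of the 6 genes with an entry, and in 0.0396% of all windows. The windows of Cebpa, Cebpb and Klf15, the upstream window of Rxra and the upstream window of Rxrg held none of the 3 motifs, and the downstream window of Rxra held 2 half-sites. The single Pparg probe, designed to NM_011146, is not assigned to any of the 3 starts here.

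The 75th percentile of signal, by which each array was scaled, ranged from 141.3 to 806.3 units. It was 498.5 to 603.7 on arrays labelled knockout at room temperature, against 292.7 to 406.2 on their controls, and the lowest values were those of Gyk knockdown replicates 3 and 4. Each experiment was scanned on 1 day of its own and on 2 slides that held both of its groups, so cold and room temperature cannot be told apart from slide and scan day. All groups, although labelled preadipocytes, carried signal of mature and brown fat cell markers. The summed signal of 8 brown fat cell markers, Ucp1 among them, was 1352 to 2268 times the 75th percentile in cold knockout-labelled samples and 3108 to 3332 in cold controls, and 359 to 472 in Pparg knockdown cultures and 766 to 991 in their controls. Of 7 macrophage markers measured, Lyz2, Mrc1 and Fcgr1 were not well above background on any culture array, and all 7 were above it on every mouse array. In bulk samples, fewer cells of a type and less RNA per cell cannot be told apart. Skeletal muscle markers stood out in cold control replicates 1 and 2 (summed signal 163 and 213), cold knockout-labelled replicate 4 (25.7) and room-temperature knockout-labelled replicate 1 (20.8), against 0.229 to 2.79 on the other 12 mouse arrays. Values without these 4 arrays are given where they change a result.

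Levels are log2 signals relative to the 75th percentile of the array, 0 being that percentile, and differences are on the same log2 scale with the standard error (SE) of a limma fit. A gene was called higher or lower at an adjusted p under 0.05, over all genes tested. Pparg was well above background on all 32 arrays, as were Rxra, Rxrg, Cebpa, Cebpb, Cebpd and Ebf2. Klf15 was above it on 8 arrays, all of them room-temperature mouse arrays.

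**Figure D1:**
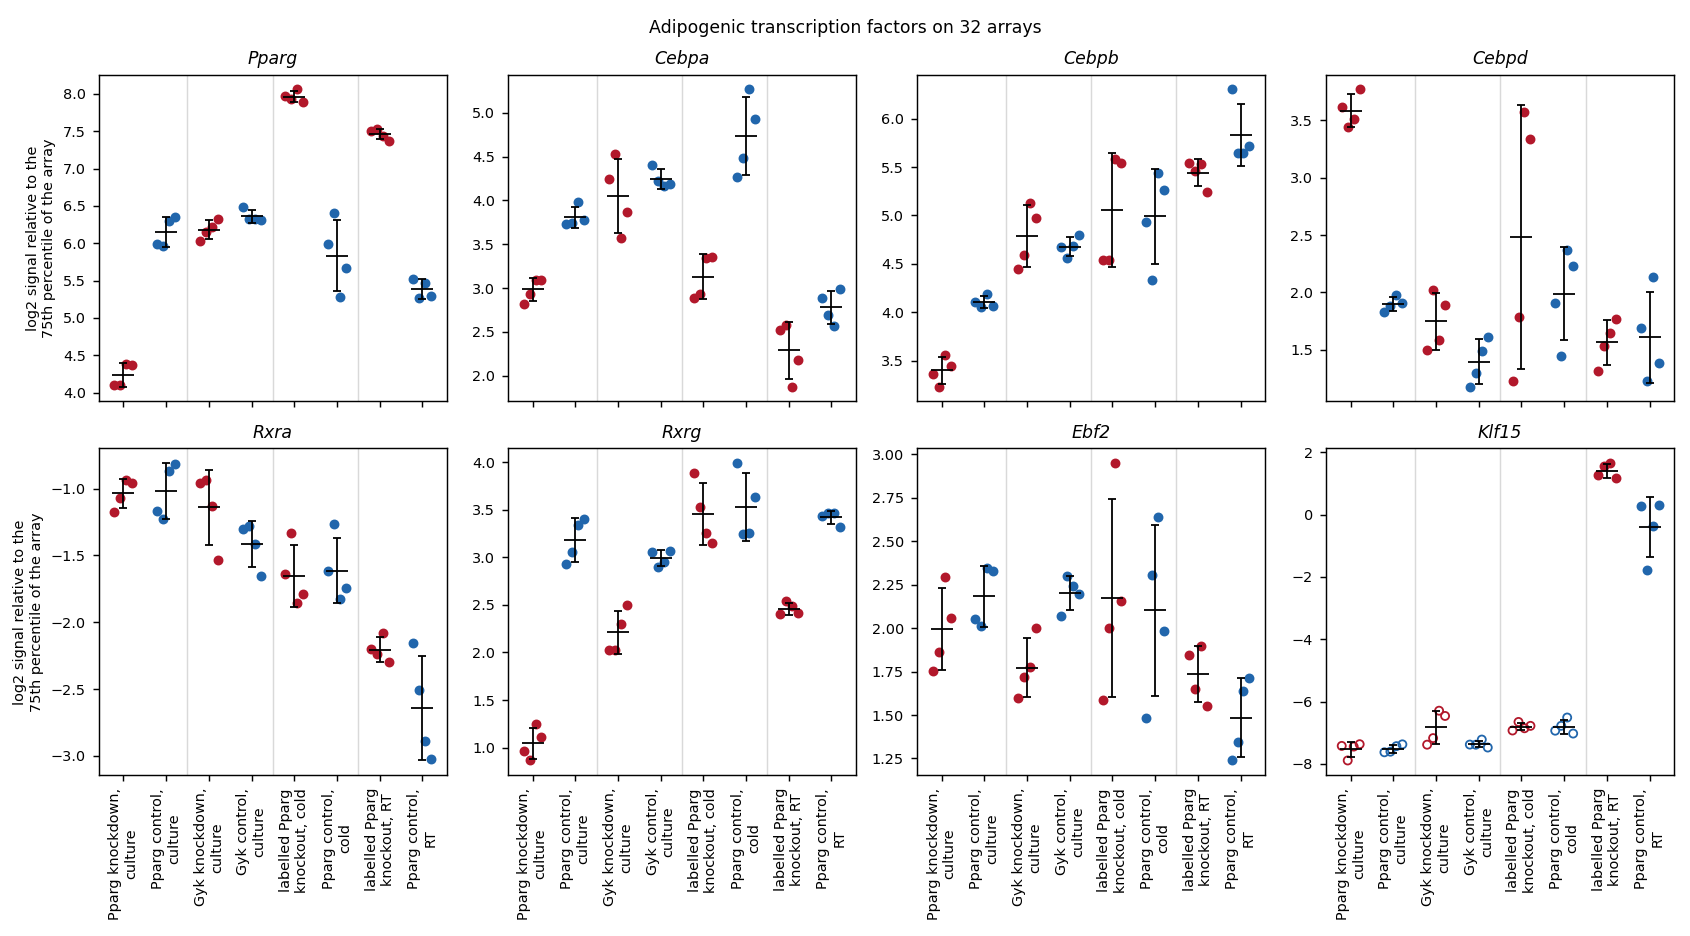
Level of each gene on every array (vertical axis, log2 signal relative to the 75th percentile of the array, scaled separately for each gene) in the 8 groups (horizontal axis, RT being room temperature), red for knockdown or knockout-labelled samples and blue for controls, with the mean and SD of 4 arrays in black and open circles where the probe was not well above background. Pparg is lowest in the knockdown (4.10 to 4.38) and highest in the cold knockout-labelled samples (7.90 to 8.06). Klf15 is above background only in the room-temperature mouse samples.

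In the Pparg knockdown, 5 of the 7 members tested passed the test, 4 lower and 1 higher, against a background of 34.1% of all 12843 genes tested (16% lower and 18.1% higher). Pparg, Rxrg, Cebpa and Cebpb fell and Cebpd rose. Same-numbered cultures of this experiment shared a slide, and pairing was not separated from slide. The limma values given for this experiment are from the fit without pairs, unless a block is named. With the number as a block, 6 of 7 members and 7409 genes passed instead of 5 and 4375, Ebf2 joining with adjusted p = 0.0353. Of 7 members tested in the Gyk knockdown, 1 passed, Rxrg, which was lower, against a background of 8.76% (4.11% lower and 4.65% higher). In the cold, 2 of the 8 members passed in knockout-labelled samples, Pparg higher and Cebpa lower, against a background of 38.4% (22.4% lower and 15.9% higher). Klf15 is among these 8 although neither cold group was above background for it. At room temperature, 3 of 8 passed, Pparg and Klf15 higher and Rxrg lower, against 34.9% (19.7% lower and 15.2% higher). The shares in the mouse comparisons (2 of 8 and 3 of 8) are near the background.

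**Figure D2:**
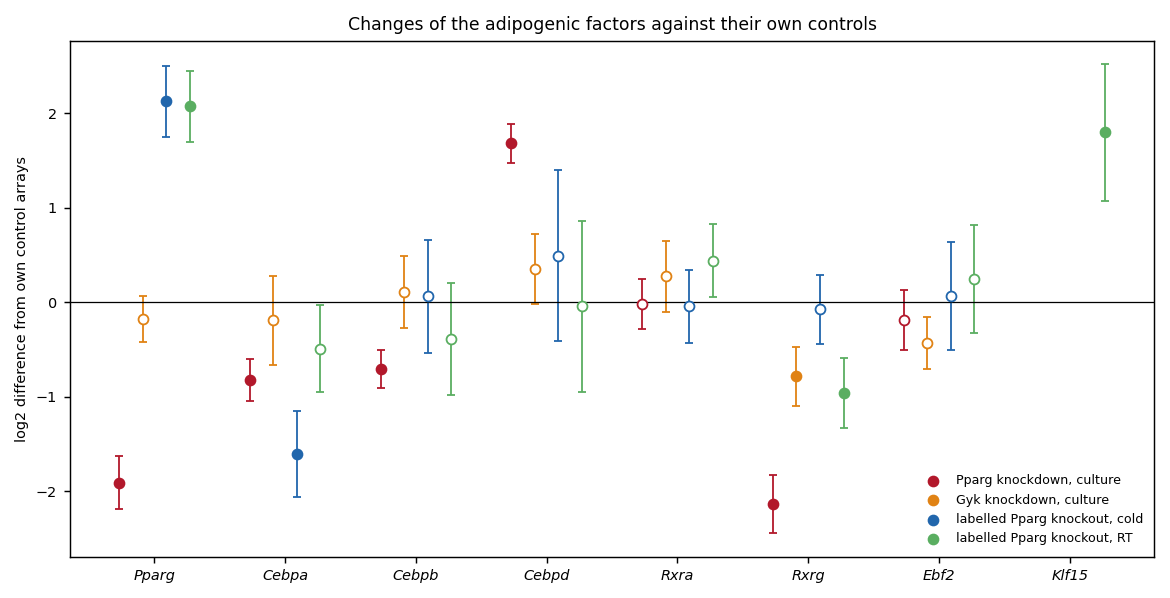
Difference of each gene from its own control arrays (vertical axis, log2; bars are 95% confidence intervals of the limma fit, 4 arrays per group) in the knockdowns of Pparg and Gyk and in samples labelled Pparg knockout in the cold and at room temperature (RT); filled points passed the test. Pparg sits at −1.91 in the knockdown and at 2.13 and 2.08 in the knockout-labelled samples. Klf15 is drawn only for the room-temperature mouse samples, where it was above background.

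Pparg fell in the culture knockdown and was higher in the mouse samples labelled knockout. Its level was 4.10, 4.10, 4.38 and 4.36 in the 4 knockdown cultures, against 5.99, 5.97, 6.29 and 6.34 in their controls. The groups did not overlap, and the difference was −1.91 (SE 0.12, adjusted p = 8.85e-06), or −1.88 and −1.95 within the 2 slides. In cold mice the level was 7.97, 7.93, 8.06 and 7.90 in knockout-labelled samples, against 5.99, 6.41, 5.28 and 5.67 in controls. At room temperature it was 7.50, 7.53, 7.44 and 7.37 in knockout-labelled samples, against 5.53, 5.26, 5.47 and 5.29 in controls. Every knockout-labelled array was above every control array at both temperatures. The difference was 2.13 in the cold (SE 0.18, adjusted p = 1.05e-06; 1.75 and 2.50 within slides) and 2.08 at room temperature (SE 0.18, adjusted p = 9.76e-07; 2.01 and 2.14 within slides). The exact 2-sided permutation test gave p = 0.0286 for each of these 3 comparisons, the smallest that 4 against 4 arrays allow.

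The rise of Pparg signal goes against the label of a knockout if the probe lies in the deleted part. The sources used here do not say where the probe lies relative to the deletion, so the probe does not check the label, and the samples are called knockout-labelled throughout. Every direction given for these samples rests on that label. The knockout-labelled difference in the cold minus that at room temperature was 0.05 (95% confidence interval −0.48 to 0.58, adjusted p = 0.914).

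Pparg in Gyk knockdown cultures was 6.04, 6.15, 6.22 and 6.33, against 6.49, 6.32, 6.32 and 6.31 in its controls. These ranges overlapped, the difference was −0.18 (95% confidence interval −0.42 to 0.07, adjusted p = 0.319), and the exact permutation p was 0.114. The difference between the Pparg and the Gyk knockdown effects on Pparg was −1.73 (SE 0.16, adjusted p = 5.99e-06). Of the 7 members tested for that difference of effects, 4 passed, against a background of 12.4% (6.14% lower and 6.29% higher). They were Pparg, Rxrg and Cebpb, lower, and Cebpd, higher.

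Ordered by mean, Pparg was highest in cold knockout-labelled samples (7.96 ± 0.07, SD, n = 4), then in room-temperature knockout-labelled samples (7.46 ± 0.07), and neither range overlapped the next. Gyk controls (6.36 ± 0.08), Gyk knockdown cultures (6.18 ± 0.12), Pparg culture controls (6.15 ± 0.20), cold controls (5.84 ± 0.48) and room-temperature controls (5.39 ± 0.13) followed, each overlapping its neighbour. The Pparg knockdown cultures were lowest (4.24 ± 0.16) and overlapped no other group. The SD among cold controls (0.48) compared with 0.07 to 0.13 in the other mouse groups.

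Rxrg, which encodes RXRgamma, one of the partner receptors, fell in the Pparg knockdown, in the Gyk knockdown and in the room-temperature knockout-labelled samples. Its level was 0.96, 0.86, 1.24 and 1.11 in Pparg knockdown cultures, against 2.93, 3.05, 3.34 and 3.41 in controls, a difference of −2.14 (SE 0.13, adjusted p = 8.21e-06). Gyk knockdown cultures had 2.03, 2.02, 2.29 and 2.49, against 3.06, 2.90, 2.95 and 3.07 in controls, a difference of −0.78 (SE 0.13, adjusted p = 0.0149). Neither pair of groups overlapped. The fall was larger in the Pparg than in the Gyk knockdown, by −1.35 (SE 0.20, adjusted p = 0.000258). The Gyk call was lost without Gyk control replicate 3 (−0.80, adjusted p = 0.0522) or 4 (−0.76, adjusted p = 0.0530), and the second Rxrg probe gave −0.37 there (adjusted p = 0.304). In the Pparg knockdown the second probe gave −1.45 (adjusted p = 1.81e-05).

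In the mice, Rxrg differed between temperatures. At room temperature it was 2.40, 2.54, 2.49 and 2.41 in knockout-labelled samples, against 3.43, 3.46, 3.46 and 3.32 in controls, a difference of −0.96 (SE 0.17, adjusted p = 0.000622), with −1.0 and −0.92 within slides. In the cold it was 3.88, 3.53, 3.26 and 3.15, against 3.99, 3.24, 3.25 and 3.64, and the difference was −0.08 (95% confidence interval −0.44 to 0.29, adjusted p = 0.764). The room-temperature groups did not overlap and the cold groups did. The knockout-labelled difference in the cold minus that at room temperature was 0.88 (SE 0.24, adjusted p = 0.0280). That call was lost without cold control replicate 3 (0.79, adjusted p = 0.0556), room-temperature knockout-labelled replicate 1 (0.86, adjusted p = 0.0562) or room-temperature control replicate 3 (0.87, adjusted p = 0.0505), and the second probe gave 0.60 (adjusted p = 0.166). For this difference of effects, 3 of 8 members passed, against a background of 13.4% (7.24% lower and 6.11% higher). They were Rxrg, higher, and Cebpa and Klf15, lower, and Klf15 was not well above background in either cold group. After normexp background correction none of these 3 calls held (adjusted p = 0.109 for Rxrg, 0.0596 for Cebpa and 0.195 for Klf15), and the Klf15 call was also lost without the arrays high in muscle markers (adjusted p = 0.0884).

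Rxra, the RXR widely expressed across tissues, was −1.18, −1.07, −0.94 and −0.96 in Pparg knockdown cultures, against −1.17, −1.23, −0.87 and −0.81 in controls. The groups overlapped, and the difference was −0.02 (95% confidence interval −0.28 to 0.25, adjusted p = 0.940). At room temperature Rxra was −2.20, −2.24, −2.08 and −2.30 in knockout-labelled samples, against −2.16, −2.51, −2.89 and −3.02 in controls, a difference of 0.44 that missed the threshold (SE 0.18, adjusted p = 0.0727). Without control replicate 1, the highest of the controls, it was 0.60 and passed (adjusted p = 0.0132), and the second Rxra probe gave 0.68 (adjusted p = 0.0470). In the cold the difference was −0.04 (adjusted p = 0.880).

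Cebpa, which encodes C/EBPalpha, the factor that maintains the fat cell state together with PPARgamma, fell in the Pparg knockdown and in cold knockout-labelled samples. In culture it was 2.82, 2.94, 3.1 and 3.09 in the knockdown, against 3.73, 3.74, 3.98 and 3.78 in controls, without overlap, a difference of −0.82 (SE 0.10, adjusted p = 0.000271). In the cold it was 2.88, 2.94, 3.34 and 3.35 in knockout-labelled samples, against 4.27, 4.48, 5.27 and 4.92 in controls. All 4 knockout-labelled arrays lay below all 4 controls. The difference was −1.61 (SE 0.21, adjusted p = 6.22e-05), with −1.47 and −1.75 within slides, and −2.04 without the arrays high in muscle markers.

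At room temperature Cebpa was 2.52, 2.58, 1.88 and 2.19 in knockout-labelled samples, against 2.89, 2.69, 2.57 and 2.99 in controls, a difference of −0.49 that missed the threshold (95% confidence interval −0.95 to −0.03, adjusted p = 0.0902). It passed at the same size with slide as a block (adjusted p = 0.0157), and at −0.57 without the arrays high in muscle markers (adjusted p = 0.0411). The knockout-labelled difference in the cold minus that at room temperature was −1.11 (SE 0.30, adjusted p = 0.0272). That call was lost without cold control replicate 4 (−1.05, adjusted p = 0.0526), room-temperature knockout-labelled replicate 1 (−1.04, adjusted p = 0.0593) or 2 (−1.02, adjusted p = 0.0590), or room-temperature control replicate 3 (−1.04, adjusted p = 0.0546). Cebpa in Gyk knockdown cultures was 4.24, 4.53, 3.57 and 3.87, against 4.41, 4.22, 4.16 and 4.19 in controls. The 2 low values were those of the knockdown arrays with the lowest 75th percentile, the groups overlapped, and the difference was −0.19 (95% confidence interval −0.66 to 0.28, adjusted p = 0.571).

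The early C/EBP genes moved in opposite directions in the Pparg knockdown. Cebpb was 3.36, 3.23, 3.56 and 3.45 in the knockdown, against 4.10, 4.06, 4.19 and 4.07 in controls, a difference of −0.70 (SE 0.09, adjusted p = 0.000390). Cebpd was 3.61, 3.44, 3.51 and 3.77 in the knockdown, against 1.83, 1.88, 1.98 and 1.91 in controls, a difference of 1.68 (SE 0.09, adjusted p = 3.44e-06), or 3.21-fold. Neither gene's groups overlapped, and the 2 slides gave −0.78 and −0.63 for Cebpb and 1.67 and 1.70 for Cebpd. The Pparg knockdown effect minus the Gyk knockdown effect was −0.81 for Cebpb (SE 0.19, adjusted p = 0.0109) and 1.33 for Cebpd (SE 0.19, adjusted p = 0.000204). The differences in the Gyk knockdown itself were 0.11 for Cebpb (adjusted p = 0.707) and 0.35 for Cebpd (adjusted p = 0.203).

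In the knockout-labelled samples neither early factor passed the test. In the cold, Cebpd was 1.23, 1.79, 3.57 and 3.34 in knockout-labelled samples, against 1.91, 1.45, 2.37 and 2.23 in controls, a difference of 0.49 (95% confidence interval −0.41 to 1.40, adjusted p = 0.385). The 2 slides gave −0.17 and 1.16, and replicates 3 and 4, which shared a slide, held the 2 high values. Cebpb in the cold was 4.54, 4.54, 5.58 and 5.54 in knockout-labelled samples, against 4.93, 4.33, 5.43 and 5.26 in controls, again higher in replicates 3 and 4 (difference 0.06, adjusted p = 0.883). At room temperature the differences were −0.39 for Cebpb (adjusted p = 0.302) and −0.04 for Cebpd (adjusted p = 0.946). Cebpb was 5.54, 5.46, 5.53 and 5.24 there in knockout-labelled samples, against 6.30, 5.64, 5.64 and 5.72 in controls, so that the groups did not overlap although the difference did not pass.

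Ebf2 did not pass in the 4 comparisons with controls as fitted without a block, and in both knockdowns the call depended on the setting. It was 1.75, 1.87, 2.29 and 2.06 in the Pparg knockdown, against 2.05, 2.01, 2.34 and 2.33 in controls, a difference of −0.19 (SE 0.14, adjusted p = 0.340, or 0.0353 with the replicate number as a block and 0.0276 with slide as a block). Gyk knockdown cultures had 1.60, 1.72, 1.78 and 2.0, against 2.07, 2.30, 2.24 and 2.20 in controls. These ranges did not overlap, and the difference of −0.43 (SE 0.12) had an adjusted p of 0.0659, or 0.0490 without knockdown replicate 4, where it was −0.50, and 0.0361 in a fit of all 16 culture arrays. In knockout-labelled samples the differences were 0.07 in the cold (95% confidence interval −0.50 to 0.64) and 0.25 at room temperature (−0.32 to 0.82).

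Klf15 was above background only on the room-temperature mouse arrays. It was 1.26, 1.54, 1.64 and 1.16 in knockout-labelled samples, against 0.27, −1.78, −0.37 and 0.29 in controls, without overlap. The difference was 1.80 (SE 0.34, adjusted p = 0.000909), with 2.16 and 1.44 within slides. Over 24 arrays of culture and cold the probe was not well above background, with levels between −7.89 and −6.29. In all, 69 of 20659 genes were well above background on all 8 room-temperature mouse arrays and on no other array, and 162 on all 8 of them and no cold array. The reverse, all 8 cold arrays and no room-temperature array, held for 35 genes. The room-temperature arrays share their scan day and slides, whose part in the Klf15 signal was not tested.

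Cold against room temperature was compared within each genotype, in arrays that differ also in slide and scan day. In controls, 5 of 8 members passed, 3 higher and 2 lower, against a background of 66.7% of all genes (41.6% higher and 25.1% lower). In knockout-labelled samples 5 of 8 passed, 4 higher and 1 lower, against 65.5% (40.9% higher and 24.6% lower). Both shares are near the background. Klf15 is counted as lower in both comparisons, but it passed the filter on dim probes only through the room-temperature arrays, where it was high. Its call is therefore not an independent result. The median of all genes was itself shifted by 0.23 in controls and by 0.23 in knockout-labelled samples (0.34 and 0.32 after quantile normalization). Cebpa was higher in the cold by 1.95 in controls (SE 0.21, adjusted p = 1.58e-06), and by 0.84 in knockout-labelled samples (SE 0.21, adjusted p = 0.00320). Rxra was higher by 1.03 in controls (SE 0.18, adjusted p = 0.000150) and by 0.55 in knockout-labelled samples (SE 0.18, adjusted p = 0.0153). The second Rxra probe gave 0.30 (adjusted p = 0.287) and −0.05 (adjusted p = 0.856), and the call in knockout-labelled samples was lost without cold knockout-labelled replicate 2 (0.44, adjusted p = 0.0536).

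Rxrg was higher in the cold by 0.99 in knockout-labelled samples (SE 0.17, adjusted p = 0.000131), where the groups did not overlap, and by 0.11 in controls (adjusted p = 0.582). Pparg was higher in the cold by 0.50 in knockout-labelled samples (SE 0.18, adjusted p = 0.0209) and by 0.45 in controls (SE 0.18, adjusted p = 0.0347). The first of these did not pass after quantile normalization (0.32, adjusted p = 0.126), and neither passed with normexp background correction (adjusted p = 0.226 and 0.110). In controls the groups overlapped, and the call was lost without cold control replicate 1 (0.40, adjusted p = 0.0834) or 2 (0.26, adjusted p = 0.117), without room-temperature control replicate 2 (0.41, adjusted p = 0.0807) or 4 (0.42, adjusted p = 0.0767), and without the arrays high in muscle markers (0.09, adjusted p = 0.589). Cebpb was lower in the cold by −0.84 in controls (SE 0.28, adjusted p = 0.0154), a call lost without cold control replicate 2 (−0.62, adjusted p = 0.0559), room-temperature control replicate 1 (−0.68, adjusted p = 0.0536) or the arrays high in muscle markers (−0.48, adjusted p = 0.170). Cebpd in knockout-labelled samples was higher by 0.92 (adjusted p = 0.0698), and passed without cold knockout-labelled replicate 1 (1.33, adjusted p = 0.00580) or 2 (1.15, adjusted p = 0.0367). Ebf2 was higher by 0.62 in controls (adjusted p = 0.0531), and passed without cold control replicate 1 (0.82, adjusted p = 0.0123) or without the arrays high in muscle markers (0.83, adjusted p = 0.0464). In knockout-labelled samples it was higher by 0.44 (adjusted p = 0.161), and passed without cold replicate 1 (0.63, adjusted p = 0.0487). Klf15 was lower in the cold, at least 68.3-fold in knockout-labelled samples and at least 19.9-fold in controls, with the cold level set, array by array, to the dimmest signal that counted as above background. These bounds are those of the main processing, and the smallest differences among the alternatives lay under them. Over 17 alternatives the log2 difference ran from −8.29 to −3.61 in knockout-labelled samples and from −6.88 to −2.35 in controls.

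Among genes that PPARgamma is known to activate, falls outnumbered rises both where Pparg signal fell and where it was higher. Of 25 such genes, 20 fell and 0 rose in the Pparg knockdown (median −1.46, against 0.03 over all genes tested), where 16% of all genes were lower and 18.1% higher. In cold knockout-labelled samples 16 fell and 2 rose (median −0.94, all genes −0.05), against 22.4% of all genes lower and 15.9% higher. At room temperature 12 fell and 3 rose (median −0.82, all genes −0.06), against 19.7% lower and 15.2% higher. With Gyk knocked down, 7 fell and 0 rose (median −0.57, all genes 0.02), against 4.11% lower and 4.65% higher. The targeted gene Gk is itself among these 7. Over the Pparg knockdown and both knockout-labelled comparisons, which share no sample, 11 of the 25 genes fell in all 3, against 748 of 12319 genes (6.07%) tested in all 3. None of the 8 members did so. The target list was chosen with earlier results of these data known, and both knockout-labelled comparisons share an estimate of spread.

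Among these genes, Pck1, which makes the glycerol backbone of fat from non-sugar precursors, fell in the Pparg knockdown (−3.68, SE 0.12), in cold knockout-labelled samples (−2.83, SE 0.40) and at room temperature (−3.77, SE 0.40). Agpat2, an enzyme of triglyceride synthesis, fell in the same 3 comparisons (−1.90, SE 0.14, then −2.71 and −2.68, SE 0.29 each). Lipe, the hormone-sensitive lipase, fell in the Pparg knockdown (−2.47, SE 0.13), in the cold (−2.24, SE 0.19) and at room temperature (−0.99, SE 0.19). Pck1, Agpat2 and Lipe were thus among the 11 genes that fell in all 3, as were the next 4. Cidec, which encodes a lipid droplet protein, fell in the Pparg knockdown (−2.36, SE 0.20), in the cold (−2.24, SE 0.23) and at room temperature (−1.59, SE 0.23). Ucp1, the uncoupling protein of brown fat, fell in the Pparg knockdown (−2.84, SE 0.11), in the cold (−1.01, SE 0.24) and at room temperature (−1.02, SE 0.24). Aqp7, a glycerol channel, fell in the Pparg knockdown (−1.33, SE 0.08), in the cold (−1.82, SE 0.12) and at room temperature (−1.95, SE 0.12). Gpd1, which makes glycerol 3-phosphate, fell in the Pparg knockdown (−1.95, SE 0.13), in the cold (−1.31, SE 0.14) and at room temperature (−1.69, SE 0.14). For Gpd1, 3 of 4 control arrays of the Pparg knockdown were counted above background. An array whose spot was left out as outlying counts as not above it. The targeted gene Gk fell in the Gyk knockdown (−2.40, SE 0.39, adjusted p = 0.0118), as did the adipokine gene Retn (−1.70, SE 0.19) and Agpat2 (−1.10, SE 0.22). Ucp1 also fell there (−0.96, SE 0.20, adjusted p = 0.0375), with only 2 of 4 control arrays counted above background once outlying spots were left out.

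**Figure D3:**
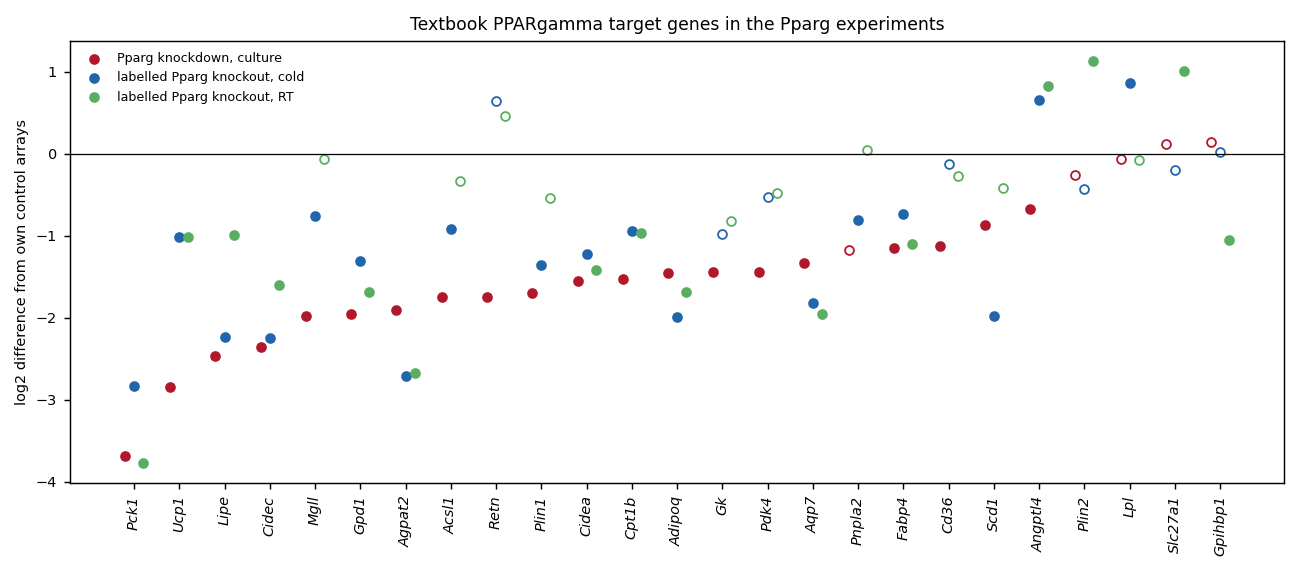
Difference from own control arrays (vertical axis, log2) of 25 textbook PPARgamma target genes (horizontal axis, ordered by the Pparg knockdown) in the Pparg knockdown and in samples labelled Pparg knockout in the cold and at room temperature (RT); filled points passed the test. Most points lie below 0, with 20, 16 and 12 genes lower in the 3 comparisons, against 16%, 22.4% and 19.7% of all genes. Pparg signal itself was lower in the first and higher in the others.

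Of 13 partners and coregulators of PPARgamma, 3 fell and 0 rose in the Pparg knockdown (median −0.20), where 34.1% of all genes passed. In cold knockout-labelled samples 4 fell and 0 rose (median −0.19), against 38.4% of all genes, and at room temperature 5 fell and 1 rose (median −0.25), against 34.9%. With Gyk knocked down 1 fell (median −0.14), against 8.76%. These shares are not far from those of all genes, and nothing particular to the list is read from them. Ppara, the PPAR that drives fatty acid oxidation, fell in the Pparg knockdown (−1.48, SE 0.09), in cold knockout-labelled samples (−2.17, SE 0.24) and at room temperature (−2.51, SE 0.24). It was the 1 gene of the 13 that fell in all 3. Prdm16, a coregulator that specifies brown fat, fell in the Pparg knockdown (−1.31, SE 0.22), as did the coactivator gene Ppargc1b (−1.14, SE 0.12), which also fell in room-temperature knockout-labelled samples (−0.62, SE 0.17). Ppargc1a, the coactivator of mitochondrial genes, fell in room-temperature knockout-labelled samples (−2.11, SE 0.73, adjusted p = 0.0350). Ncoa1, a nuclear receptor coactivator, fell in knockout-labelled samples at room temperature (−0.60, SE 0.12) and in the cold (−0.41, SE 0.12). Rxrb, the remaining RXR gene, fell in knockout-labelled samples in the cold (−0.53, SE 0.12, adjusted p = 0.00277) and at room temperature (−0.57, SE 0.12, adjusted p = 0.00190).

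Of 6 regulators of lipid synthesis and brown fat tested in culture, all 6 fell in the Pparg knockdown (median −0.99), against 34.1% of all genes called (16% lower). The 6 regulators included Nr1h3, the liver X receptor alpha gene (−1.28, SE 0.18), Srebf1, which activates fatty acid synthesis genes (−1.13, SE 0.16), and the estrogen-related receptor genes Esrrg (−1.05, SE 0.11) and Esrra (−0.94, SE 0.18). None of the 6 passed by limma in the Gyk knockdown (median −0.23), against 8.76% of all genes, and 2 had an unadjusted p under 0.05. Of 7 tested in mice, 2 fell in cold knockout-labelled samples, Nr1h3 (−1.19, SE 0.17) and Esrra (−0.70, SE 0.12), against 38.4% of all genes called (22.4% lower). At room temperature 3 fell, Esrra (−1.15, SE 0.12), Esrrg (−0.76, SE 0.17) and Nr1h3 (−0.74, SE 0.17), against 34.9% (19.7% lower). Nothing particular to the list is read from these mouse counts.

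Of 15 other inducers of adipogenesis tested, 3 rose and 2 fell in the Pparg knockdown, against 34.1% of all genes called, and 4 rose and 1 fell in the Gyk knockdown, against 8.76%. In cold knockout-labelled samples 1 rose and 1 fell, against 38.4%, and at room temperature 3 rose and 0 fell, against 34.9%. Apart from the Gyk knockdown, these shares are at or below those of all genes. In the Gyk knockdown the Krüppel-like factor gene Klf5 rose by 1.28 (SE 0.21, adjusted p = 0.0122), Egr2 by 1.24 (SE 0.22) and Klf4 by 0.98 (SE 0.13), which are early inducers in cultured preadipocytes. Egr2 and Klf4 also rose in the Pparg knockdown, each by 0.65 (SE 0.13 and 0.14). Cebpg, a C/EBP family gene, fell in cold knockout-labelled samples (−1.02, SE 0.14). Of 11 inhibitors of adipogenesis tested in culture, 5 rose and 2 fell in the Pparg knockdown, against 34.1% of all genes called, and 0 rose and 1 fell in the Gyk knockdown, against 8.76%. Of 13 tested in mice, 2 rose in the cold, against 38.4%, and 1 fell at room temperature, against 34.9%. Zfp521, a repressor of Ebf1 and of early fat cell commitment, rose by 2.57 in the Pparg knockdown (SE 0.37, with 3 of 4 control arrays above background) and by 1.01 in cold knockout-labelled samples (SE 0.26, adjusted p = 0.00660).

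Markers of other cells moved with some of these groups. In cold knockout-labelled samples, 7 of 9 preadipocyte and fibroblast markers rose (summed signal 168 to 229, against 106 to 144 in controls), and 6 of 7 macrophage markers rose (25.9 to 40.5, against 15.4 to 18.7). Of all genes tested, 15.9% were called higher there. At room temperature 1 of 9 fibroblast markers rose and 1 fell, 1 of 7 macrophage markers rose, and 5 of 7 endothelial markers fell (12.9 to 15.1 in knockout-labelled samples, against 17.0 to 28.3). The shares of all genes there were 15.2% higher and 19.7% lower. In the Pparg knockdown 5 of 9 preadipocyte and fibroblast markers rose (35.2 to 37.2, against 21.5 to 23.6), where 18.1% of all genes were higher. Mature fat cell markers fell, 7 of 7 in the Pparg knockdown, 5 of 7 in cold knockout-labelled samples and 4 of 7 at room temperature. Of all genes, 16%, 22.4% and 19.7% were lower in these comparisons. Most of these markers, among them Adipoq, Cidec and Lipe, are also in the list of PPARgamma target genes, so their falls are not a separate result. The part of cell composition in the members' changes was not tested.

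No other member was among the 5 genes closest to Pparg over the 8 group means. Among 9455 genes well above background on all 32 arrays, the highest Pearson correlations with Pparg over 8 group means were those of Plcb1 (0.947), a phospholipase C, Elmod2 (0.938), Mrtfb (0.914), a coactivator of serum response factor, Cry2 (0.867) and Bhlhe40 (0.866), both clock components. Elmod2 had a group mean of 2.06 in cold knockout-labelled samples and 0.46 in cold controls, 2.29 at room temperature in knockout-labelled samples and −0.37 in controls, and −1.36 in Pparg knockdown cultures and −0.46 in their controls. Over the same means the members gave 0.506 for Cebpb, 0.496 for Rxrg, 0.183 for Ebf2, −0.139 for Cebpa, −0.238 for Rxra and −0.447 for Cebpd. These are descriptions of 8 points that share scan days and slides in pairs.

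**Figure D4:**
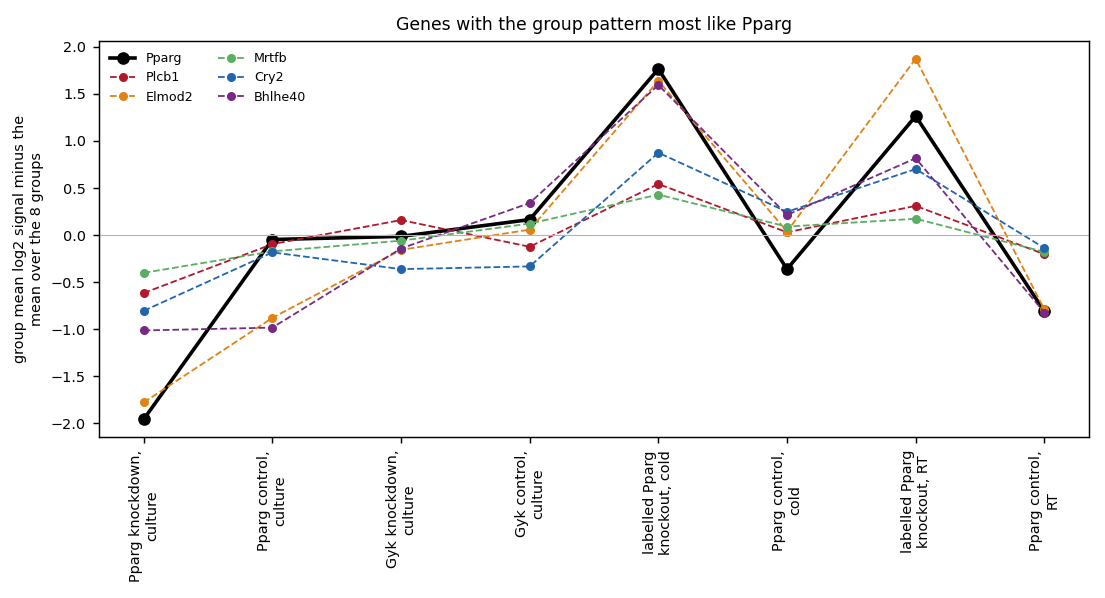
Group mean log2 signal minus the mean over the 8 groups (vertical axis) for Pparg (black) and the 5 genes with the most similar pattern (colours) in the 8 groups (horizontal axis, RT being room temperature). All have higher means in the knockout-labelled groups than in their controls, and Elmod2, with group means of 2.06 and 0.46 in the cold, moves nearly as far as Pparg.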

How the data were processed

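RNA of 32 samples was measured on one-colour Agilent arrays, from 200 ng of total RNA per sample per the labels' protocols. Per the file headers, the deposited files hold for each spot an intensity that Agilent Feature Extraction 10.7.3.1 (version per the submitters' processing notes) had background-subtracted, not normalized between arrays. The deposited series table holds identical intensities. Of 44397 spots per array, 1377 control spots and 101 to 247 outlying spots were left out. Intensities were log2-transformed and each array's 75th percentile subtracted. RefSeq's gene table (GRCm38.p6, names only) named 27234 of 39429 probes (69.1%), and for genes with several probes the one with the highest mean was used. A probe entered a fit if well above background on at least 4 arrays.

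The limma package (3.58.1, under R 4.3.3) served for the comparisons, with lmFit and eBayes, 2-sided, Benjamini-Hochberg adjusted over all genes tested at a threshold of 0.05, on 8 arrays for each knockdown, 16 mouse arrays for the mouse comparisons and 16 culture arrays for the difference between knockdowns. Second probes were fitted over all probes. Same-numbered residuals correlated at 0.703 to 0.767 in the Pparg cultures (all 4 pairs above 0.1, each on 1 slide, where other numbers reached 0.725). These numbers served as pairs only in the alternative with replicate number as a block, and pairing was not separated from slide. In the other experiments 0 to 2 of 4 pairs exceeded 0.1.

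The members and gene lists were chosen with earlier results of these data known, and 2 listed genes are not reported here. Named genes were the members, up to 4 list genes per comparison with the largest change among those past the threshold, and the 5 genes most like Pparg. Background correction by normexp used median spot signals rather than mean signals, a choice made after seeing the files. Other alternatives were quantile normalization, other filters on dim probes, slide or replicate number as a block, the mean of a gene's probes, other sets of arrays, and leaving out each array. The limma scripts were tested on simulated data. The number of arrays limits precision.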

Additional observations from a re-analysis of the deposited data

Results flagged for a closer look

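Among 58 tests for a sample far from its group, 2 stood out, and chance gives about 1 in 20. Pparg in Gyk control replicate 1 was 6.49, against 6.31 to 6.32 in the other 3, a gap of 0.929 of the group's range. Cebpb in room-temperature Pparg control replicate 1 was 6.30, against 5.64 to 5.72, a gap of 0.881 of the range.

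The knockout-labelled difference in the cold departed from that at room temperature for Cebpa (by −1.11), Rxrg (by 0.88) and Klf15 (by −1.79), by the test of the difference itself. None of these calls held after normexp background correction, and those of Cebpa and Rxrg were each lost without some single arrays. The Klf15 value is not read as a size, since both cold groups were below background. The Pparg knockdown effect departed from the Gyk knockdown effect for Pparg (by −1.73), Rxrg (by −1.35), Cebpb (by −0.81) and Cebpd (by 1.33).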

How the results depend on the processing

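Pparg, Rxrg, Cebpa, Cebpb and Cebpd kept their calls in the Pparg knockdown in all 16 alternatives, Pparg between −1.97 and −1.79, as did Pparg in all 17 alternatives in knockout-labelled samples in the cold (1.94 to 2.51) and at room temperature (2.03 to 2.41). Counts of genes called moved by over 1.5 times as follows. Pparg knockdown, 4375 genes, became 7597 with slide as a block and 7409 with the replicate block. Gyk knockdown, 1070 genes and 1 member, became 259 genes with normexp, 447 without the filter on dim probes, 111 genes and 0 members with the replicate block (the numbers pairing only some arrays), 2463 genes and 2 members in a fit of all 16 culture arrays, and 2 members without the 2 knockdown arrays of lowest signal. Room-temperature knockout-labelled samples, 4903 genes and 3 members, became 2399 genes with normexp, 5 members with slide as a block and 5 members with the replicate block, as Cebpa and Rxra joined. Cold against room temperature in controls went to 3 members with normexp. The cold minus room-temperature difference, 1879 genes and 3 members, became 610 genes and 0 members with normexp. The difference between knockdowns, 1631 genes, became 865 with normexp and 2999 with slide as a block. The second Rxra probe at room temperature (0.68) had adjusted p = 0.0503 without the filter. The causes were not tested.

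Leaving out 1 array at a time gave 3595 to 3990 genes and 5 to 5 members in the Pparg knockdown, 298 to 1383 and 0 to 2 in the Gyk knockdown, 4421 to 5539 and 2 to 2 in the cold, 4073 to 4455 and 3 to 4 at room temperature, 8909 to 9130 and 3 to 5 for cold in controls, 8600 to 9002 and 5 to 7 for cold in knockout-labelled samples, 1231 to 2187 and 1 to 3 for the cold minus room-temperature difference, and 1291 to 2086 and 4 to 5 for the difference between knockdowns. Results of list genes, counted once per alternative, kept their call and direction 1905 times, lost the call 138 times and reversed 5 times. Counts of genes called per list stayed within 1.5 times in 628 cases and moved further in 117. The 5 reversals were as follows. Egr2 in the Pparg knockdown went from 0.65 to −0.00716 with normexp. For cold in knockout-labelled samples, Creb1 went from −0.94 to 0.160 and Hes1 from −2.67 to 0.0733, both with normexp. With the mean of its probes, Mlxipl for cold went from 1.53 to −0.434 in controls and from 0.99 to −0.726 in knockout-labelled samples. The arrays' number, and for Klf15 its signal over background, limit these results. The normexp setting and those without low-signal or muscle-rich arrays were chosen after seeing the data.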
